A study of Mus musculus with 3 samples.

Results

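Immediate early genes are the first genes that a cell transcribes after a growth factor, cytokine, wound or stress signal, and 10 of them (Fos, Fosb, Jun, Junb, Egr1, Atf3, Ier2, Ier3, Dusp1 and Zfp36) were followed by name through the cells of mouse liver. All 10 were found among the 19091 genes of the count files. Liver tissue of adult mice, C57BL/6 in the labels and C57BL/6J in the methods, was profiled by Drop-seq, which captures cells in droplets with barcoded beads and counts each captured transcript once by its unique molecular identifier (UMI), in 3 libraries. Irreversible electroporation (IRE) kills cells in a confined area by electric pulses, here 8 pulses of 50 ms given 1 s apart, at 75 V in the sample labels and at a lower voltage in the study's methods. The IRE_1d library held tissue taken 1 day after the injury (day 1), the IRE_7d library held tissue taken 7 days after it (day 7), and the control library held tissue of livers that were not pulsed, from sham surgery with sacrifice after 1 day in the labels and from the equivalent uninjured area in the methods. Tissue was cut with a punch of 4 mm and digested for 30 min at 37 °C with enzymes in all 3 libraries, and tissue of 3 livers was pooled for each. With 1 pool per condition, a difference between libraries has no replicate check. No p-value is therefore given, and every interval is a 95% interval that covers counting error only.

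These genes need no newly made protein for their induction, because kinases of the MAP kinase family act on transcription factors that already sit on their promoters. Their mRNAs decay quickly, so that their level follows the recent past of a cell, and several of their products (Dusp1, Zfp36, Ier3, Atf3) close the response again. They are also well known to rise in cells that are dissociated with enzymes at body temperature. How far digestion set their level in these libraries was not tested.

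Barcodes with at least 200 detected genes were taken as cells, which left 10386 cells in the control library, 9253 in IRE_1d and 5624 in IRE_7d, holding 8013800, 6107866 and 3058967 UMIs in all and a median of 595, 509 and 456.5 UMIs per cell. Levels are given as CPM, the UMIs of a gene per 1000000 UMIs of the same cells. The libraries stood apart in several ways. The mitochondrial share of UMIs was 20.5, 21.7 and 4.10% in the same order, and the share of hepatocyte markers was 0.200, 3.47 and 0.0454%. Cell barcodes shared by a pair of libraries numbered 44 to 149. Because mitochondrial UMIs are part of the total, a lower mitochondrial share raises the CPM of all other genes, and ratios to control were therefore also computed without mitochondrial genes.

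The promoters of 8 of the 10 genes were found in the RefSeq table of build GRCm38.p6, which lacked Egr1 and Ier2. Of these, 4 are shown because their genes gave the clearest differences below among the 8. Fos and Atf3 were at least 2-fold lower than control on day 1, and Ier3 and Dusp1 were 13.3 and 3.64 times control on day 7. Each sequence holds the 250 bases before the transcription start in the direction of the gene, 5′ to 3′. Capitals mark TGACGT, the core of the cyclic AMP response element, on either strand, and TATAAA, the TATA box, on the strand of the gene. The windows are chr12:85473640-85473889 (+) for Fos, chr1:191183334-191183583 (-) for Atf3, chr17:26508473-26508722 (-) for Dusp1 and chr17:35821463-35821712 (+) for Ier3.
Fos: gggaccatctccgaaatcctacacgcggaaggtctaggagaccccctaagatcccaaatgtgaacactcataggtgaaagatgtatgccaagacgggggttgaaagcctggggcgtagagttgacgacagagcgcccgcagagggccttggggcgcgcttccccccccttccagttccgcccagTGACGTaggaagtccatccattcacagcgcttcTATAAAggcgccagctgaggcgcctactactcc
Atf3: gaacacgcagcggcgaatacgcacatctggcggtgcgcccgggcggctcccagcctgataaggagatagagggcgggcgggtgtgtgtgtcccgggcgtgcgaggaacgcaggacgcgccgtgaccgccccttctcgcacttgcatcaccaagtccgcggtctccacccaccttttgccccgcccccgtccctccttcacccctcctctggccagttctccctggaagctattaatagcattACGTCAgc
Dusp1: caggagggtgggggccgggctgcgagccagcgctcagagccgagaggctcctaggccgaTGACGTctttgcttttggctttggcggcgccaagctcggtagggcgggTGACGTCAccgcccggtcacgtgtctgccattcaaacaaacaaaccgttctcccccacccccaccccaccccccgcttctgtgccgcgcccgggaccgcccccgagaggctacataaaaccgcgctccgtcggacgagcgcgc
Ier3: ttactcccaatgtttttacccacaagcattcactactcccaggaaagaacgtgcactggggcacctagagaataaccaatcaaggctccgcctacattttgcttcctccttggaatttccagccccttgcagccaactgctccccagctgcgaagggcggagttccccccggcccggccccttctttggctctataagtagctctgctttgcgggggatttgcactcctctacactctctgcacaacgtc

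TGACGT was found in 3 of the 8 windows (Fos, Atf3 and Dusp1) and in 6.47% of all 32851 windows of the same length. In Fos it lay 66 to 61 bases and the TATA box 33 to 28 bases before the start, whereas in Atf3 the element lay 8 to 3 bases before it. Dusp1 held 3 matches, of which the pair between 143 and 136 bases before the start overlapped. TATAAA was found in 1 of 8 windows against 7.59% of all windows, and a CArG box, the site of serum response factor, in 1 of 8 (Zfp36) against 1.47%. TGANTCA, the site of AP-1, was found in 0 of 8 windows against 6.75%. These matches are letters in a window and were not read as sites that are in use.

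Over all cells of a library, the 10 genes together reached 1381 CPM in control (11065 UMIs, exact Poisson interval 1355 to 1407), 1004 CPM on day 1 (6134 UMIs, 979 to 1030) and 4961 CPM on day 7 (15176 UMIs, 4883 to 5041). The level on day 1 was thus 0.727 times that of control (conditional binomial interval 0.705 to 0.750), and the level on day 7 was 3.59 times that of control (3.51 to 3.68). Without mitochondrial genes these ratios were 0.739 and 2.98. All 10 genes were at least 2-fold higher on day 7 than in control, and none was at least 2-fold lower. Among the 10227 genes with at least 50 UMIs in these 2 libraries, 8.79% were at least 2-fold higher and 21.8% at least 2-fold lower, and the median ratio was 0.862 over all of these genes and 3.20 over the 10. On day 1, 0 of the 10 were at least 2-fold higher and 2 (Fos and Atf3) were at least 2-fold lower, against 12.2% and 5.86% of 11357 genes, with a median ratio of 0.814 over the 10 and 1.03 over all. Both comparisons rest on the same control library.

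**Figure D1:**
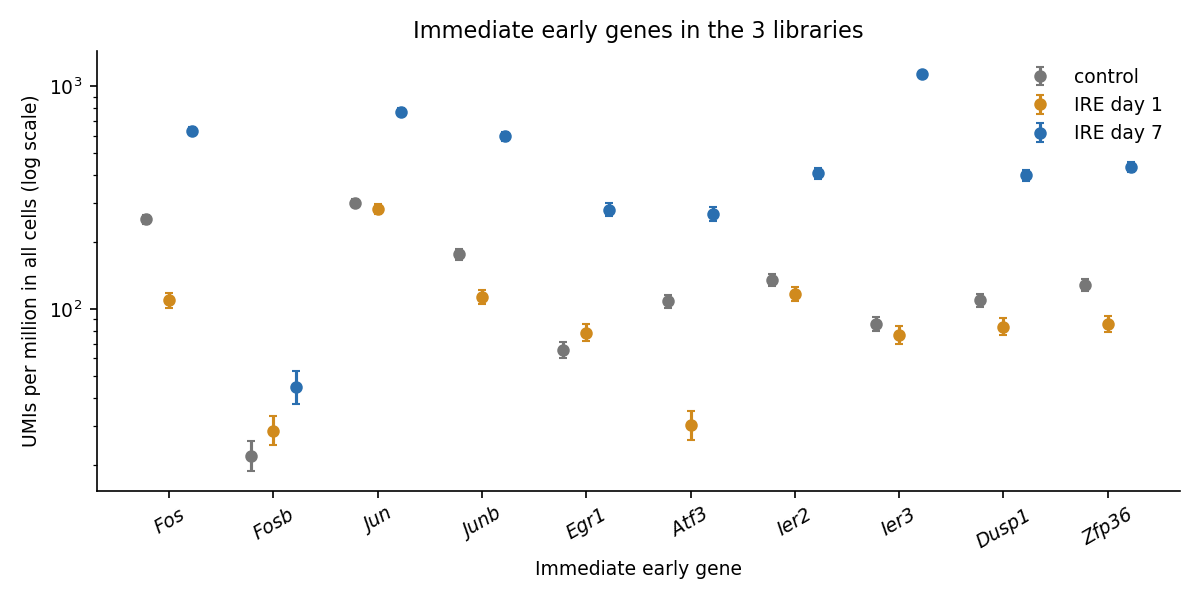
Level of each immediate early gene over all cells of the control, IRE day 1 and IRE day 7 libraries, in CPM on a log scale. Points are the level in 1 pooled library each and bars the exact 95% Poisson interval. The day 7 point lies above the other 2 for every gene, and Fos and Atf3 show the widest gap between control and day 1.

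The AP-1 factors are dimers of a Fos and a Jun protein. Fos, the partner that cannot pair with itself, was counted at 253 CPM in control, 109 CPM on day 1 and 630 CPM on day 7. Its ratio to control was 0.433 (0.396 to 0.473) on day 1 and 2.49 (2.34 to 2.65) on day 7. Fosb, a related partner, had the fewest UMIs, with 176, 174 and 136 UMIs or 22.0, 28.5 and 44.5 CPM. Its ratio was 1.30 (1.05 to 1.61) on day 1 and 2.02 (1.61 to 2.55) on day 7, and the latter fell under 2-fold, to 1.68, once mitochondrial UMIs left the denominator. Jun, the core partner, was at 298 CPM in control and 281 CPM on day 1, levels whose ratio of 0.943 had an interval (0.886 to 1.00) reaching 1. On day 7 Jun was counted at 768 CPM, 2.57 times control (2.43 to 2.72). Junb, which is often the weaker activator of the Jun proteins, was at 176 CPM in control, 113 CPM on day 1 and 597 CPM on day 7, with ratios of 0.645 (0.588 to 0.707) and 3.39 (3.16 to 3.64). The 4 AP-1 genes therefore shared the higher level on day 7, whereas on day 1 Fos and Junb were lower, Fosb was higher and Jun lay close to control.

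Egr1, a zinc finger factor induced by serum response factor, was at 65.5 CPM in control, 78.4 CPM on day 1 and 279 CPM on day 7. Its ratio was 1.20 (1.06 to 1.36) on day 1 and 4.26 (3.81 to 4.75) on day 7. The latter ranged with the choice of cells, from 2.30 in cells with at most 5% mitochondrial UMIs to 6.55 over every deposited barcode. Atf3, a stress-induced factor that mainly represses, was at 108 CPM in control, 30.1 CPM on day 1 and 267 CPM on day 7. It had the lowest ratio of the 10 genes on day 1, 0.278 (0.236 to 0.326), at the 2.17 percentile of all genes tested, and a ratio of 2.47 (2.24 to 2.72) on day 7. Ier2, a small nuclear protein, was at 135, 117 and 407 CPM, with ratios of 0.868 (0.789 to 0.955) and 3.02 (2.78 to 3.28).

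Ier3, which encodes a short-lived protein linked to cell survival, stood out. It was counted at 85.6 CPM in control (686 UMIs), 76.5 CPM on day 1 (467 UMIs) and 1136 CPM on day 7 (3476 UMIs). The ratio was 0.893 (0.792 to 1.01) on day 1 and 13.3 (12.2 to 14.4) on day 7, at the 99.3 percentile of all genes tested there, and 11.0 without mitochondrial genes. Dusp1, the phosphatase that switches off MAP kinases, was at 109, 83.5 and 398 CPM. Its ratios were 0.763 (0.683 to 0.852) and 3.64 (3.33 to 3.97). Zfp36, or tristetraprolin, which marks mRNAs with AU-rich ends for decay, was at 128, 85.8 and 435 CPM, with ratios of 0.671 (0.603 to 0.747) and 3.41 (3.14 to 3.70). Both feedback genes were thus higher on day 7, as the activators were, and lower on day 1. Over all cells Fosb and Egr1 were higher on day 1. For Egr1 a day 1 ratio computed with the mix of cells of control was 0.992, as described below. That ratio left out cell classes with under 20 cells on day 1 but was taken to the level of all control cells. It is therefore no like-for-like value. In the 152 control cells and 146 cells of day 1 with at most 5% mitochondrial UMIs, the day 1 ratio took the other direction for Fosb (0.371) and Ier2 (1.70), and it was 0.318 for Dusp1 and 0.0570 for Atf3.

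**Figure D2:**
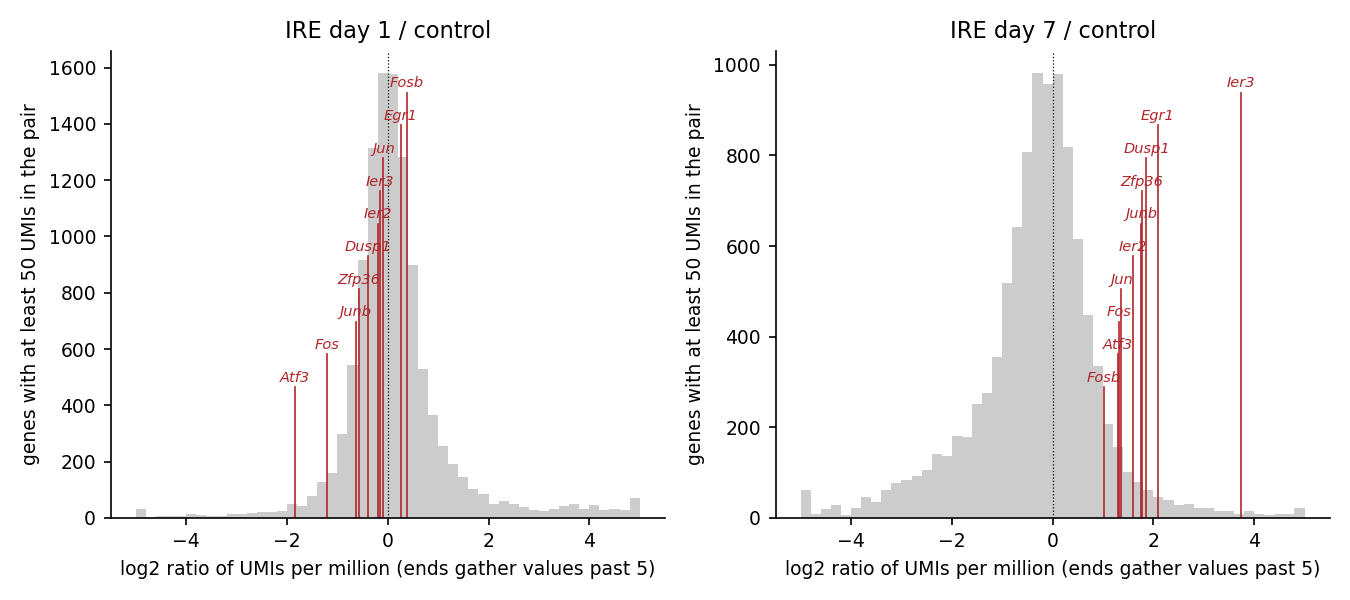
Histograms of the log2 ratio of CPM over all cells for every gene with at least 50 UMIs in the pair of libraries, IRE day 1 against control (left) and IRE day 7 against control (right), with red lines at the 10 immediate early genes. On day 7 all 10 lines lie at a log2 ratio of 1 or above, with Ier3 farthest to the right, whereas on day 1 most lie near 0 with Fos and Atf3 to the left.

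The libraries differed in their cells, so that the 10 genes were also counted within classes. A cell was put into a class when at least 3 markers of that class were detected and more than of any other class, or, for hepatocyte-like cells, when at least 10% of its UMIs came from hepatocyte markers. The ending -like marks that these classes rest on markers alone. The neutrophil-like class held 365 control cells (3.51%), 61 cells of day 1 (0.659%) and 2755 cells of day 7 (49.0%). Kupffer-like cells (resident macrophages of the sinusoids) numbered 2165, 2574 and 184, endothelial-like cells 1503, 3569 and 75, monocyte-like cells 911, 39 and 383, and wound macrophage-like cells 369, 11 and 871. In these 5 classes, 5 to 8 of the 10 leading genes of a class were its own markers in every library with at least 20 of its cells, and at most 1 was a marker of another class. Cells were chosen by these markers, so that this is no independent check of the class names. Wound macrophage-like cells were led by Mmp12, Gpnmb and Spp1 in control and by Ccl7, Ccl2 and Ccl12 on day 7. Cells that met no rule made up 37.2, 25.9 and 22.5% of the libraries, and in them the 10 genes together were 0.773 (0.725 to 0.825) and 2.97 (2.82 to 3.13) times control.

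Among the control classes, neutrophil-like cells carried the 10 genes at the highest summed level, 2366 CPM (642 UMIs, 2186 to 2556), followed by monocyte-like cells at 2084 CPM (1973 to 2200) and mesenchymal-like cells at 1973 CPM (1845 to 2107). Each of these intervals overlapped that of its neighbour, whereas those of neutrophil-like and mesenchymal-like cells did not overlap. Wound macrophage-like cells at 1402 CPM and cholangiocyte-like cells at 1396 CPM came next with overlapping intervals, then Kupffer-like cells at 1163 CPM, endothelial-like cells at 1127 CPM and B cell-like cells at 1113 CPM, which overlapped as well. The lowest levels were those of T cell-like (979 CPM), conventional dendritic-like (972 CPM), NK cell-like (782 CPM) and plasmacytoid dendritic-like cells (613 CPM), of which the last rested on 23 UMIs. The order among the injured libraries was led by the same class, with neutrophil-like cells at 2982 CPM on day 1 (104 UMIs, 2436 to 3613) and 6229 CPM on day 7 (9085 UMIs, 6102 to 6359).

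The genes differed in the control class that held most of them. Fos was highest in monocyte-like cells (532 CPM, 333 UMIs) and neutrophil-like cells (464 CPM, 126 UMIs), compared with 139 CPM in endothelial-like cells. Jun, Fosb and Egr1 were highest in mesenchymal-like cells, at 526, 75.2 and 310 CPM. Atf3 was highest in wound macrophage-like cells, at 400 CPM (191 UMIs), against 94.8 CPM in Kupffer-like and 38.4 CPM in endothelial-like cells. Dusp1, Ier3, Junb, Ier2 and Zfp36 were highest in neutrophil-like cells, at 332, 239.5, 313, 276 and 265 CPM.

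In neutrophil-like cells on day 7 the 10 genes together were 2.63 times control (2.43 to 2.86), and 2.08 times without mitochondrial genes. The leading genes of this class differed in part between the 2 libraries. Camp, Ltf and Mmp8 were among its 10 leading genes in control but not on day 7, and Stfa2l1, Mmp9 and Il1r2 on day 7 but not in control. Of the 10 genes, 7 were at least 2-fold higher (Fosb, Jun, Junb, Egr1, Atf3, Ier3 and Zfp36), against 21.4% of the 4129 genes tested in these cells. Ier3 went from 239.5 to 1521 CPM, a ratio of 6.35 (4.96 to 8.26). Egr1 went from 84.7 to 413.5 CPM, a ratio of 4.88 (3.22 to 7.76). Atf3 went from 66.3 to 252 CPM, a ratio of 3.80 (2.37 to 6.49). Fos, Dusp1 and Ier2 were the 3 that stayed under 2-fold, with ratios of 1.61, 1.61 and 1.89, the intervals of which excluded 1. On day 1 the class had 61 cells and 104 UMIs of the 10 genes, a ratio of 1.26 (1.01 to 1.55). There 1 of the 7 genes with at least 50 UMIs was at least 2-fold higher (Ier3, 2.15, 1.20 to 3.68), against 4.48% of 737 genes, and 1 was at least 2-fold lower (Jun, 0.469, 0.148 to 1.14, from 5 UMIs on day 1), against 15.3%.

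In the other myeloid classes the sum was also higher on day 7. Monocyte-like cells went from 2084 to 4543 CPM, a ratio of 2.18 (2.01 to 2.37). Of 9 genes tested, 7 were at least 2-fold higher, against 13.8% of 2469 genes, and Egr1 had the largest ratio among them at 4.69 (2.91 to 7.68), followed by Ier3 at 4.23 (3.26 to 5.52). Wound macrophage-like cells went from 1402 to 3688 CPM, a ratio of 2.63 (2.41 to 2.88), with 7 of 9 genes at least 2-fold higher against 17.2% of 2804 genes. Ier3 went there from 46.1 CPM (22 UMIs) to 865 CPM (445 UMIs), a ratio of 18.8 (12.2 to 30.2), and Ier2 from 37.7 to 272 CPM, a ratio of 7.21 (4.40 to 12.5). Atf3 took the opposite direction in these cells, from 400 to 299 CPM, a ratio of 0.748 (0.601 to 0.929). Kupffer-like cells went from 1163 to 2567 CPM, a ratio of 2.21 (1.97 to 2.46), and 5 of 9 genes (Junb, Egr1, Ier2, Ier3 and Dusp1) were at least 2-fold higher, against 8.36% of 5132 genes. Their Ier3 went from 64.8 to 575 CPM, 8.87 times control (6.66 to 11.8), whereas Jun and Atf3, at 1.28 and 1.11 times control, had intervals that included 1.

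Endothelial-like cells numbered 75 on day 7 and held 108 UMIs of the 10 genes. Their sum went from 1127 to 2389 CPM, a ratio of 2.12 (1.72 to 2.58), and 3 of 8 genes (Egr1, Ier3 and Zfp36) were at least 2-fold higher, against 15.2% of 3215 genes. Ier3 gave 33 of these UMIs and a ratio of 8.32 (5.41 to 12.5). The intervals of the other 5 (Fos, Jun, Junb, Ier2 and Dusp1) included 1, so that the depth of this class could not show a difference for them. T cell-like cells, 56 on day 7, had a ratio of 3.02 (2.33 to 3.89) from 82 UMIs. In each of the 5 larger classes the ratio was thus above 4 for Ier3 and above 2 for Egr1.

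Without mitochondrial genes in the denominator, 2 of the 5 larger classes (neutrophil-like at 2.08 and wound macrophage-like at 2.39) remained past 2-fold on day 7. The ratio was then 1.92 in Kupffer-like, 1.75 in monocyte-like and 1.69 in endothelial-like cells. Mitochondrial transcripts took 12.2 to 25.0% of the UMIs of these classes in control and 2.61 to 4.87% on day 7, and the part of this difference in the results was not tested beyond the change of denominator.

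**Figure D3:**
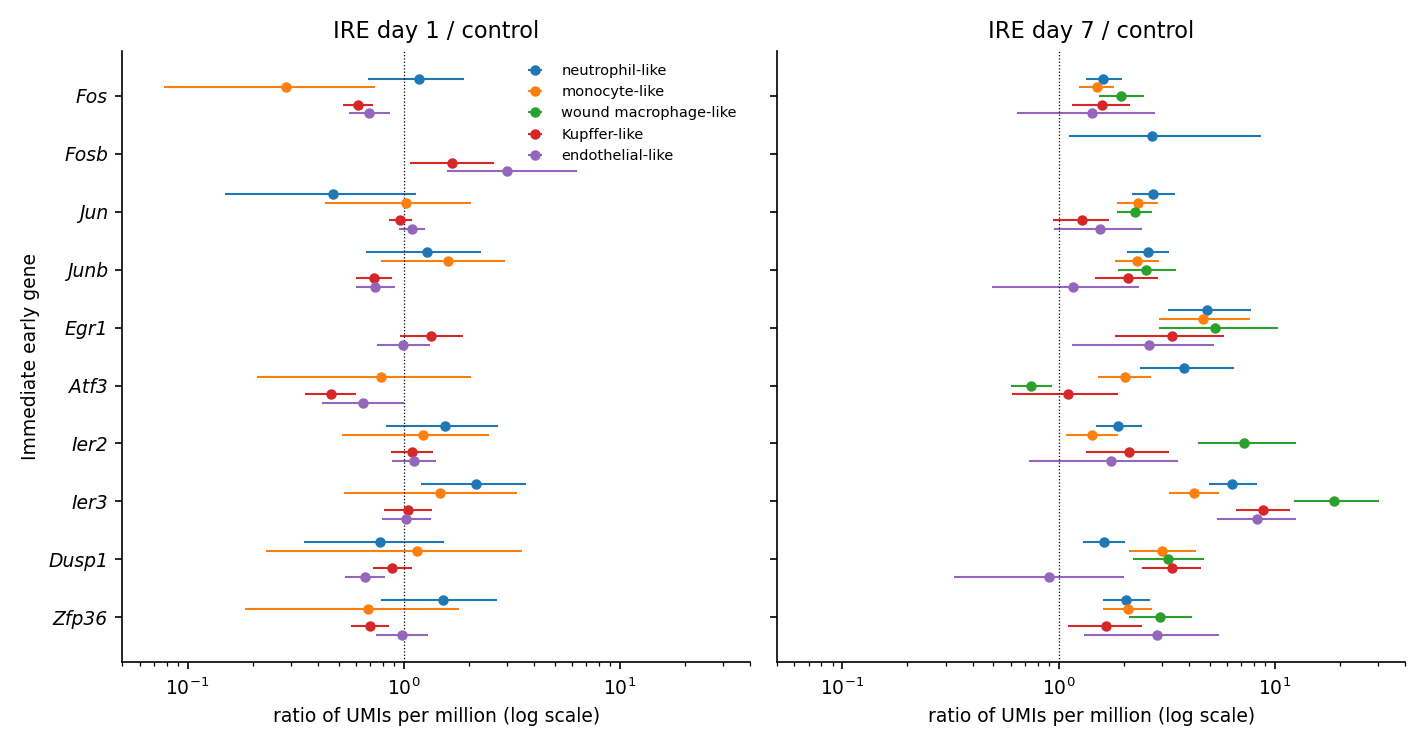
Ratio of CPM to control on a log scale for each immediate early gene within 5 marker-gated classes, on day 1 (left) and day 7 (right), for genes with at least 50 UMIs in the pair of libraries. Points are ratios of 1 pooled library to another, bars the 95% conditional binomial interval, and the dotted line is no difference. On day 7 Ier3 is higher in all 5 classes and Atf3 spreads from below 1 in wound macrophage-like to 3.80 in neutrophil-like cells, while on day 1 Fos lies below 1 in Kupffer-like, endothelial-like and monocyte-like cells.

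On day 1 the differences within classes were smaller. Kupffer-like cells went from 1163 to 966 CPM, a ratio of 0.830 (0.779 to 0.884). Of the 10 genes, 0 were at least 2-fold higher and 1 (Atf3) was at least 2-fold lower, against 8.37% and 3.31% of 7229 genes. Atf3 went from 94.8 to 43.6 CPM, 0.460 times control (0.348 to 0.603), Fos from 216 to 133 CPM, 0.616 times control (0.523 to 0.723), and Zfp36 from 126 to 88.4 CPM, 0.700 times control (0.570 to 0.858). Fosb was higher, from 17.9 to 29.8 CPM (1.67, 1.07 to 2.61). Endothelial-like cells went from 1127 to 1043 CPM in sum, 0.925 times control (0.861 to 0.994). There 1 gene (Fosb) was at least 2-fold higher and 0 were at least 2-fold lower, against 8.29% and 2.12% of 7106 genes. Fosb went from 11 UMIs (10.8 CPM) to 71 UMIs (32.7 CPM), a ratio of 3.01 (1.59 to 6.31), while Fos (0.692), Junb (0.740) and Dusp1 (0.661) were lower with intervals under 1. The 39 monocyte-like cells held 49 UMIs of the 10 genes, with 0 of 8 genes at least 2-fold higher against 7.14% of 1820 genes and 1 at least 2-fold lower against 25.2%. This was Fos, at 0.287 (0.0776 to 0.741) from 4 UMIs.

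To see how far the different mix of cells could move the levels over all cells, the levels of one library were combined with the class shares of another. With control levels in every class and the class shares of day 7, the 10 genes together would have been 1.37 times control, and with the levels of day 7 and control shares 2.51 times, over classes that held 88.9% of the control UMIs, compared with the 3.59 observed. Ier3 gave 1.80 and 8.78 in the same way, compared with 13.3 observed. On day 1 the sum gave 0.876 with control levels and 0.846 with control shares, compared with 0.727 observed, and Atf3 gave 0.682 and 0.439, compared with 0.278. Egr1 gave 0.900 and 0.992 on day 1, compared with 1.20 observed. On day 1 the values with control levels covered 89.5% of the day 1 UMIs, without hepatocyte-like cells. Those with control shares covered 87.0% of the control UMIs, without the wound macrophage-like and mesenchymal-like classes that were highest in Atf3 and Egr1 in control. Every ratio was taken to the level of all control cells. Values with classes left out are therefore not like for like.

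Barcodes with fewer than 200 genes hold free RNA, debris and cells of little RNA, and their levels were read as a background. In control they carried the 10 genes at 972 CPM and on day 1 at 828 CPM, so that cells were 1.42 (1.35 to 1.49) and 1.21 (1.15 to 1.28) times their background. Mitochondrial genes took 52.7 and 38.7% of the UMIs of these barcodes, which lowers the CPM of other genes. Without mitochondrial genes, control barcodes of 100 to 149 and of 150 to under 200 genes were at 2235 and 1975 CPM, against 1736 CPM in cells. On day 1 such barcodes were at 1295 and 1393 CPM, against 1283 CPM in cells. On that scale cells did not stand above these small barcodes in either library. On day 7 these barcodes carried 7779 CPM, more than the cells, which were at 0.638 (0.623 to 0.653) of that level, and at 0.545 for Ier3 (1136 against 2085 CPM). Within the library of day 7 the summed level fell with the size of the barcode, from 8107 CPM at 100 to 149 genes to 3278 CPM at 1000 genes and more, whereas in control cells it lay between 1349 and 1420 CPM in every size class from 200 genes upwards. Without mitochondrial genes it fell between these sizes in both libraries, from 8965 to 3353 CPM on day 7 and from 2235 to 1485 CPM in control. At each size the library of day 7 was the highest.

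**Figure D4:**
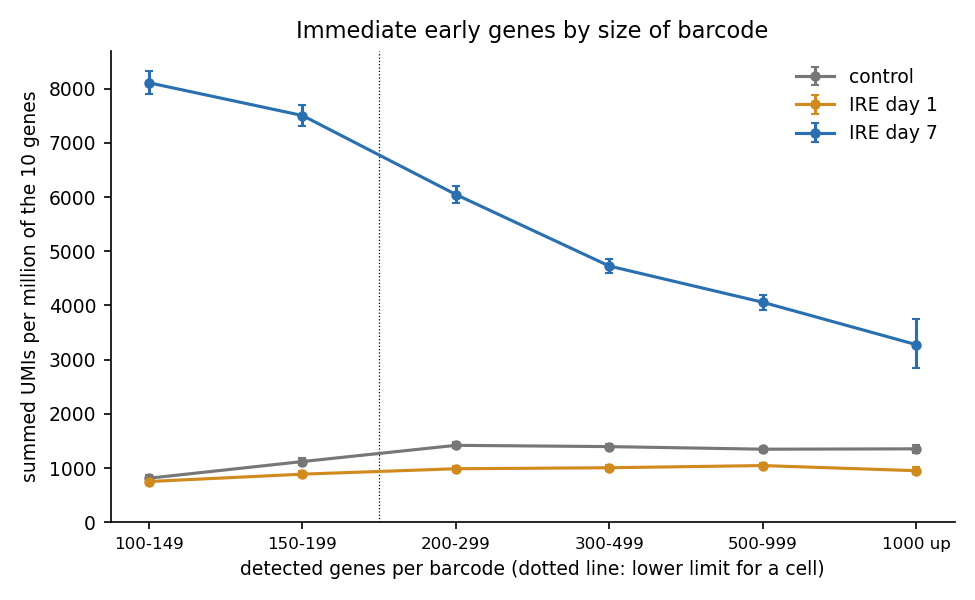
Summed CPM of the 10 immediate early genes by the number of genes detected in a barcode, for the 3 libraries, with exact 95% Poisson intervals. The dotted line is the lower limit of 200 genes for a cell. The IRE day 7 line falls from 8107 to 3278 and stays above the other 2, which lie between 753 and 1420.

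Neutrophil markers moved with this background. In barcodes under 200 genes they took 10197 CPM in control, 881 CPM on day 1 and 100614 CPM on day 7. The last lay above the 76432 CPM of the neutrophil-like cells of day 7. Whether these barcodes held free RNA or neutrophils of little RNA was not tested. In the 4 other larger classes the markers took 956 to 2063 CPM in control but 12268 to 14865 CPM on day 7. Of the 16 markers of the list, 13 or 14 had a UMI in each of these 4 classes on day 7, with Ltf at 0 in all 4 and Ly6g, Camp or both at 0 as well. For each 100 UMIs of neutrophil markers, the small barcodes of day 7 held 2.07 UMIs of Ier3 (2.00 to 2.15) and neutrophil-like cells 1.99 (1.91 to 2.08). Kupffer-like cells held 4.69 (3.71 to 5.85), monocyte-like cells 4.98, wound macrophage-like cells 5.99 and endothelial-like cells 4.91 (3.35 to 6.96). A subtraction used such a ratio from the small barcodes of each library, for the sum and for Ier3 apart. For Ier3 the control ratio was 0.714, and for the sum the ratios were 9.53 in control and 7.73 on day 7. Control neutrophil-like cells held 2.90 for the sum, so that the control ratio was above that of these cells. With the UMIs at these ratios taken off, the ratio of day 7 to control fell from 2.21 to 1.60 for the sum in Kupffer-like cells, from 2.18 to 1.82 in monocyte-like, from 2.63 to 1.96 in wound macrophage-like and from 2.12 to 1.33 in endothelial-like cells. For Ier3 it was then 6.00, 2.67, 14.4 and 5.78. This subtraction was chosen after the values had been seen, and monocytes and macrophages transcribe some of these markers themselves.

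Single cells were compared after each had been thinned to 300 UMIs, for which 209, 298 and 545 cells of the control, day 1 and day 7 libraries were too shallow. At least 1 UMI of the 10 genes was then found in 31.1% of the control cells (exact binomial interval 30.2 to 32.0%), 24.0% of those of day 1 (23.1 to 24.9%) and 72.2% of those of day 7 (70.9 to 73.4%). Without thinning these shares were 52.1, 39.1 and 84.2%. No class is known to lack these genes, so that the small barcodes above serve as the background for such shares. At least 3 different genes of the 10 were found in 1.32% of thinned control cells, 0.525% on day 1 and 15.1% on day 7. Ier3 alone was found in 2.68, 2.21 and 26.9% of cells, and Fos in 6.85, 3.14 and 16.0%. The cell with the most UMIs of these genes gave 0.190% of them in control, 1.52% on day 1 and 0.198% on day 7, so that no library rested on 1 cell. This cell held 21, 93 and 30 UMIs in the same order. How far a small class rested on such a cell was not tested.

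In thinned neutrophil-like cells a UMI of the 10 genes was found in 46.5% in control, 57.6% on day 1 (34 of 59 cells) and 79.8% on day 7, and at least 3 different genes in 3.88, 3.39 and 21.9%. Kupffer-like cells carried a UMI in 26.6, 22.0 and 59.4%, and endothelial-like cells in 24.1, 24.6 and 46.9% (30 of 64 cells on day 7). Among the 2561 thinned neutrophil-like cells of day 7, Egr1 was found in 17.3% of the cells with a UMI of Fos (14.1 to 20.9%) and in 10.9% of those without (9.58 to 12.3%), and Junb in 25.8% (22.0 to 29.8%) and 20.5% (18.7 to 22.3%). Jun was found in 22.2 and 20.6%. The intervals overlapped for Junb and Jun and not for Egr1. The small barcodes of day 7 carried the 10 genes at 7779 CPM, above the 6229 CPM of the neutrophil-like cells, and the part of free RNA in these shares was not tested.

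**Figure D5:**
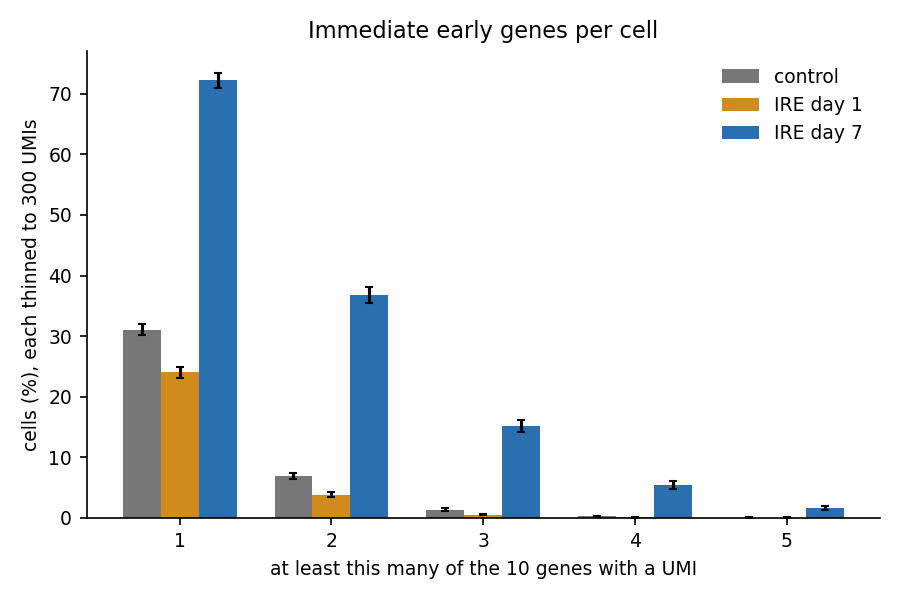
Share of cells, in percent, with a UMI of at least 1 to 5 different immediate early genes after each cell was thinned to 300 UMIs, for the control, IRE day 1 and IRE day 7 libraries, with exact 95% binomial intervals. At 3 or more genes the bars stand at 1.32, 0.525 and 15.1%.

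Over all cells of a library, those with a larger mitochondrial share carried more of the 10 genes, but this did not hold in every class. On the scale without mitochondrial genes, control cells with under 5% mitochondrial UMIs (152 cells) were at 1467 CPM, those with 5 to 20% at 1639 CPM and those above at 1979 CPM. The same 3 groups were at 1168, 1218 and 1377 CPM on day 1 and at 4824, 6399 and 8910 CPM on day 7. Within each group of cells the library of day 7 was the highest of the 3. Endothelial-like cells went the other way, with 1644 CPM at 5 to 20% and 1273 CPM above in control, and 1445 and 1359 CPM on day 1, and Kupffer-like cells of day 1 were at 1212 and 1187 CPM. The intervals of both pairs of day 1 overlapped.

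Related genes were counted beside the 10. Of 19 other immediate early transcription factors, 18 were in the files. On day 7, 7 of the 17 with at least 50 UMIs were at least 2-fold higher (Fosl1, Fosl2, Egr2, Klf6, Klf10, Maff and Csrnp1) and 0 lower. Over all genes these shares were 8.79% and 21.8%. The median ratio of the list was 1.58. Fosl1, a further AP-1 partner, went from 6 to 86 UMIs (37.6, 16.6 to 105) and Maff, a small Maf factor, from 37 to 134 UMIs (9.49, 6.55 to 14.1). Klf6, a zinc finger factor, was at 246, 142 and 568 CPM in control, on day 1 and on day 7. Klf2, which marks flow in endothelium, was at 131, 166 and 144 CPM, and Jund, the Jun protein that is made steadily, at 136, 74.0 and 85.6 CPM. On day 1, 0 of 16 were at least 2-fold higher (against 12.2% of all genes) and 5 lower (against 5.86%). These 5 were Fosl2, Egr2, Nr4a1, Nr4a3 and Cebpb, and the median of the list was 0.580. The lowest ratios were those of Egr2 (0.241, 0.114 to 0.462), Cebpb (0.256, 0.205 to 0.317) and the nuclear receptor Nr4a1 (0.321, 0.246 to 0.414).

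Other early genes of feedback and signalling numbered 23. On day 7, 11 of 21 were at least 2-fold higher (against 8.79% of all genes) and 2 lower (against 21.8%), with a median ratio of 2.17. On day 1, 0 were higher (against 12.2%) and 4 lower (against 5.86%), with a median of 0.718. Nfkbia, the inhibitor of NF-κB, was at 456, 380 and 1366 CPM, Mcl1, a survival protein, at 268, 145 and 402 CPM, and Zfp36l1, a relative of Zfp36, at 240, 146 and 406 CPM. Dusp5, a phosphatase for ERK kinases, had a ratio of 5.65 (4.67 to 6.86) on day 7. The matricellular genes Ctgf and Cyr61 took the other direction, at 0.183 (0.105 to 0.298) and 0.260 (0.142 to 0.443) of control, from 17 and 15 UMIs. Over all cells, early response genes were thus not all higher on day 7. Mesenchymal-like cells numbered 418 in control and 2 on day 7, and endothelial-like cells 1503 and 75. The part of the cell mix in the ratios of Ctgf and Cyr61 was not tested.

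Heat shock chaperones, a stress response of another kind, had a median ratio below 1 over all cells. Of 11 genes, 0 were at least 2-fold higher (against 8.79% of all genes) and 1 lower (against 21.8%) on day 7, with a median of 0.848. On day 1, 0 were higher (against 12.2%) and 2 lower (against 5.86%), with a median of 0.722. Hsp90ab1 was at 3025, 2274 and 2222 CPM, Hspa8 at 1147, 854 and 1266 CPM, and Hsp90aa1 at 648, 264 and 602 CPM. Within classes the chaperones differed on day 7, with a summed ratio of 1.65 (1.49 to 1.84) in endothelial-like, 1.12 (1.05 to 1.20) in Kupffer-like, 1.09 (1.02 to 1.16) in monocyte-like, 1.06 (0.996 to 1.13) in neutrophil-like and 0.962 (0.910 to 1.02) in wound macrophage-like cells. Those at least 2-fold higher were 2 of 9 tested in neutrophil-like cells (Hspa1a and Dnajb1), against 21.4% of all genes there. They were 2 of 9 in Kupffer-like cells (Dnajb1 and Hsph1, against 8.36%) and 1 of 7 in endothelial-like cells (Hsph1, against 15.2%). In monocyte-like and wound macrophage-like cells they were 0 of 7, against 13.8 and 17.2%. In neutrophil-like and endothelial-like cells these counts lay close to the share over all genes. The 16 kinases and factors upstream of the 10 genes had a median ratio of 0.988 on day 1, with 0 at least 2-fold higher (against 12.2% of all genes) and 1 lower (against 5.86%). On day 7 their median was 0.958, with 1 (Map2k1) higher (against 8.79%) and 1 (Mapk14) lower (against 21.8%). Map2k2, a kinase of the ERK cascade, was at 122, 109 and 121 CPM, and Elk3, a partner of serum response factor, was at 56.5, 107 and 51.3 CPM.

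Among the mRNAs that Zfp36 protein is known to destabilise, without members of the 10, 5 of the 6 tested were at least 2-fold higher on day 7 (Tnf, Il1b, Cxcl2, Ccl3 and Ptgs2), against 8.79% of all genes. Their list had a median ratio of 12.2, in the library in which Zfp36 mRNA was itself 3.41 times control. Cxcl2, a neutrophil chemokine, was at 58.0, 49.3 and 5222 CPM, Il1b at 125, 96.3 and 1687 CPM and Ccl3 at 53.4, 26.0 and 582 CPM. On day 1, 0 of 5 were higher (against 12.2% of all genes) and 2 lower (against 5.86%) over all cells, with a median of 0.711. In neutrophil-like cells, however, both genes tested on day 1 (Il1b and Cxcl2) were at least 2-fold higher, against 4.48% of all genes tested there. The summed ratio of the list was 2.92 (2.39 to 3.54). On day 7 the list had a median ratio of 6.22 over 5 genes and a summed ratio of 7.73 (6.98 to 8.57) in these cells, compared with a summed ratio of 27.5 over all cells. The counts show mRNA and say nothing of Zfp36 protein or its activity.

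Over 27 sums of a class in a library with at least 20000 UMIs, of which 6 came from day 7, the 5 other genes whose log2(CPM + 10) followed the summed 10 genes most closely were Nfil3 (Pearson r = 0.888), 1810033B17Rik (0.871), Ccr1 (0.871), Clec4e (0.868) and Slfn4 (0.867), among 4730 genes compared. The 10 genes themselves gave r between 0.611 (Egr1) and 0.933 (Ier3) for the 9 with at least 500 UMIs, each being part of the sum. The sums share libraries and depth, so that these values are a description. Over all cells the 5 genes were 7.34 to 23.3 times control on day 7 and 0.116 to 0.556 times control on day 1.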

How the data were processed

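The authors deposited, for each of the 3 Drop-seq libraries, a table of UMI counts per gene and cell barcode, as whole numbers without normalisation. Per the file headers, UMIs within an edit distance of 1 were merged and reads on the sense strand with a mapping quality of at least 10 were counted. The submitters' processing notes name STAR 2.5.2a and build hg19, although the gene symbols are those of mouse, so that no coordinates are tied to the counts. A limit of 200 genes per barcode is written there too, yet smaller barcodes are in the tables, and these were set aside as background. The 10 genes and the related lists were chosen with earlier results of these data known.

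UMIs were summed by library and by class with Python 3.11.15, NumPy 2.4.6 and SciPy 1.17.1. Class markers were fixed in a list, whereas the limits of 3 markers and of 10% hepatocyte UMIs were set after seeing the data. No doublet caller was run, and leaving out cells with a marker of another lineage served as the check. A gene was called when it differed at least 2-fold with at least 50 UMIs in the pair. Levels carry exact Poisson, ratios conditional binomial and shares exact binomial (Clopper-Pearson) intervals at 95%. Named beside the 10 were the 3 genes of each list with the most UMIs, the 3 largest changes in each direction past 2-fold in the first 2 lists and the 5 genes most alike, except 1 gene that is not reported here. On simulated counts with 50 genes changed 3-fold in each direction, the call found 100% of them for day 1 and 98% for day 7. Alternatives changed the barcode, mitochondrial and UMI limits, the denominator, the weighting of cells, the gate and the thinning.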

Additional observations from a re-analysis of the deposited data

Results flagged for a closer look

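Atf3 differed in direction between classes on day 7. Its ratio to control was 3.80 (2.37 to 6.49) in neutrophil-like cells and 2.03 (1.53 to 2.68) in monocyte-like cells but 0.748 (0.601 to 0.929) in wound macrophage-like cells, the class with the highest Atf3 level in control. These values stand out because the same contrast moved in opposite directions in classes of the same libraries. The difference between classes was not tested, since each class rests on 1 library per condition, and the wound macrophage-like class was led by different genes in control and on day 7.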

How the results depend on the processing

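No paired analysis was possible because each condition is 1 library, and for the same reason no library could be left out. Of the recomputed summary values, 82 stayed within their counting interval (or 1.5 times for counts of genes and classes), 44 moved by more and 0 were labelled reversed. That label was possible only for ratios at least 2-fold from control. Ratios nearer to control could change direction without it, as the day 1 sum in endothelial-like cells did (below). The summed ratio of day 7 to control became 4.54 with every deposited barcode, 3.06 with at least 400 genes per barcode, 3.44 with at most 20% and 3.33 with at most 5% mitochondrial UMIs per cell, 2.98 without mitochondrial genes and 2.97 without these and hepatocyte markers. That of day 1 became 0.797 with at most 5% mitochondrial UMIs and 0.772 without mitochondrial genes and hepatocyte markers, and 4 in place of 2 genes were then at least 2-fold lower in cells of at most 5%. On day 7, 9 of the 10 genes stayed at least 2-fold higher without mitochondrial genes or with at most 20% mitochondrial UMIs, and 8 with at most 5%, where Atf3 was at 1.14.

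Within classes on day 7, the ratio without mitochondrial genes was 2.08 in neutrophil-like, 1.92 in Kupffer-like, 1.75 in monocyte-like, 2.39 in wound macrophage-like and 1.69 in endothelial-like cells, and without hepatocyte markers as well 2.08, 1.92, 1.75, 2.38 and 1.69. Neutrophil-like cells gave 2.34 with at least 400 genes and 2.87 with at most 20% mitochondrial UMIs, where endothelial-like cells gave 1.68. Wound macrophage-like cells gave 2.40 with at most 5%. After the subtraction at the ratios of the small barcodes, which may hold small cells as well as free RNA, the ratio was 1.60 in Kupffer-like and 1.82 in monocyte-like cells. It was 1.96 in wound macrophage-like and 1.33 in endothelial-like cells. Of the 5 classes, all past 2-fold in the report, 2 were so without mitochondrial genes, 2 without these and hepatocyte markers, 2 (of the 2 that gave a value) with at most 5% mitochondrial UMIs and 3 (of 4) without cells holding a marker of another lineage. On day 1, Kupffer-like cells gave 0.885 with at most 20% and 0.763 with at most 5% mitochondrial UMIs and 0.890 without mitochondrial genes and hepatocyte markers, and endothelial-like cells gave 1.15 without markers of another lineage. The limits to 5% and the subtraction were chosen after seeing the data. With at most 5% mitochondrial UMIs the neutrophil-like, monocyte-like and endothelial-like classes held under 20 control cells and gave no value, and neither did endothelial-like cells of day 7 without markers of another lineage.

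The share of cells with a UMI of the 10 genes was 43.5, 34.9 and 83.1% for control, day 1 and day 7 when thinned to 500 UMIs and 52.1, 39.1 and 84.2% when not thinned. The background in barcodes under 100 genes was 187, 978 and 6570 CPM, from 7 UMIs in control and 3 UMIs on day 1. The cause of these moves was not tested beyond what each setting changes by construction.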

Other observations

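Some classes held at least 20 cells in only part of the libraries. Hepatocyte-like cells were numerous only on day 1 (283 cells, against 19 in control and 0 on day 7), and the 10 genes together stood at 514 CPM there (460 to 573), next to the 517 CPM of plasmacytoid dendritic-like cells (14 UMIs) and below the other classes with at least 20 cells of that day. Egr1 gave 110 of their 328 UMIs (172 CPM). After thinning, 11.7% of these cells had a UMI of the 10 genes. Mesenchymal-like cells numbered 418 in control, 11 on day 1 and 2 on day 7. In control they held Egr1 at 310 CPM (140 UMIs), Fos at 383 CPM and Jun at 526 CPM. Cholangiocyte-like cells, 51 in control and 37 on day 1, held the 10 genes at 1396 CPM (1094 to 1755) and 1739 CPM (1462 to 2053), a ratio of 1.25 (0.932 to 1.68) whose interval included 1. Jun was 1.90 times control in them (1.16 to 3.25, from 22 and 64 UMIs).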
